A study of Cunninghamia lanceolata with 18 samples.

Results

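The genes described here are 3 cytochrome P450 genes that the study of Chinese fir placed in its brassinosteroid panel, namely the DWF4 homologs Cl09250 and Cl22509 and the CYP720B2 homolog Cl19011. They were taken by identifier (Cula0009250, Cula0022509 and Cula0019011, for which the study writes Cl and the last 5 digits) and are 3 of the 46723 genes counted. The study had listed them because they differed between its clones in these same libraries. RNA was sequenced from Clone1 (C1, the clone with the longer internodes) and Clone11 (C11, the clone with the shorter internodes) of Cunninghamia lanceolata. Apical bud (AB), upper phloem next to the apical bud (UP) and lateral bud (LB) were taken from both clones, with 3 libraries per clone and tissue and 18 in all. Each clone is a single genotype, so a difference between C1 and C11 is one between these genotypes, and the labels name no treatment. The methods of the study date the collection, at the appearance of lateral buds, to day 21 after sprouting of the apical bud for C1 and to day 28 for C11. The stages it describes for the hormone samples put the first lateral buds earlier in C11, so the order of the days is unclear, and clone and day of collection cannot be told apart. No marker of the 3 tissues was at hand, and the tissue labels were not checked.

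Brassinosteroids are plant steroid hormones that promote cell elongation and division and act in stem growth and branching. They are built from sterols by a chain of oxidations, most of them carried out by P450 enzymes. In Arabidopsis, DWF4 is the steroid 22-hydroxylase of this chain, its rate-limiting step, and mutants without it are dwarfs. P450s of the CYP720B group are known from spruce and pine as enzymes of diterpene resin acid synthesis, where they oxidise diterpenes of the defence resin. The names of the Chinese fir genes are those of the study and rest on similarity to genes of other species, and the activity of the encoded enzymes was not measured.

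The libraries held 24766529 to 32005160 counts, and their TMM factors ran from 0.842 to 1.09. Levels are given as CPM, the count of a gene scaled to a common library size with these factors. CPM does not correct for gene length, so levels are compared between libraries for the same gene and not between genes. In a tissue sample, fewer cells that express a gene and less RNA per cell cannot be told apart. The study sampled 3 randomly chosen individuals of each clone, those it also used to measure hormones, and calls the samples of a group biological replicates. Whether tissues with the same replicate number came from the same individual is not stated.

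The C11 libraries with replicate number 3 stood apart. Over the 27174 genes that passed the low-count filter in the 18 libraries, all 3 of them lay above the other 6 C11 libraries for 10.9% of genes and below them for 10.7%. The next highest shares were those of C11 replicate 1, 5.14% above and 6.6% below, and in C1 no replicate exceeded 2.8% in either direction. The totals of the C11 replicate 3 libraries, 26796290 to 29089722 counts, and their TMM factors, 0.976 to 1.05, lay within the range of the other 15 libraries. The main results on C11 below are also given without these libraries.

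DWF4 (Cl09250) was at a low level in every C1 library and varied widely in C11. In AB it had 0.525, 0.192 and 0.507 CPM in C1 and 12.7, 1.82 and 45.6 CPM in C11 (replicates 1, 2 and 3 throughout). In UP it had 1.38, 0.673 and 0.238 CPM in C1 and 9.01, 15.3 and 70.8 CPM in C11. In LB it had 1.97, 0.376 and 0.401 CPM in C1 and 25.3, 0.860 and 119 CPM in C11. The clones did not overlap in AB or UP, whereas in LB replicate 2 of C11 lay within the range of C1. The highest C11 library of every tissue was replicate 3. The lowest value of all, 0.192 CPM, rested on 6 counts, with an exact 95% Poisson interval of 2.20 to 13.1 counts that covers counting error only.

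In AB, Cl09250 averaged 0.408 ± 0.187 CPM over the C1 libraries and 20.0 ± 22.8 CPM over those of C11 (SD, n = 3 each). The UP averages were 0.764 ± 0.577 CPM for C1 and 31.7 ± 34.0 CPM for C11. The LB averages were 0.917 ± 0.916 CPM for C1 and 48.3 ± 62.1 CPM for C11. In C11 the SD exceeded the mean in each tissue. The C11 mean was 49.1 times the C1 mean in AB, 41.5 times in UP and 52.6 times in LB. Against the C1 mean, C11 replicate 3 was 112 times as high in AB, 92.7 times in UP and 129 times in LB, and the mean of C11 replicates 1 and 2 was 17.8, 15.9 and 14.3 times as high.

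The second DWF4 homolog (Cl22509) was also lower in C1, by less. In AB it had 1.22, 0.961 and 1.64 CPM in C1 and 3.55, 2.13 and 7.64 CPM in C11. In UP it had 3.60, 3.61 and 0.984 CPM in C1 and 9.24, 6.67 and 44.9 CPM in C11. In LB it had 2.57, 0.876 and 1.58 CPM in C1 and 17.6, 1.29 and 25.8 CPM in C11. As for Cl09250, the clones were apart in AB and UP, replicate 2 of C11 lay within the C1 range in LB, and replicate 3 was the highest C11 library in each tissue. The C11 mean was 3.48 times the C1 mean in AB, 7.42 times in UP and 8.89 times in LB. Without replicate 3 of C11 these ratios were 2.22, 2.91 and 5.64.

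CYP720B2 (Cl19011) was the gene of the 3 whose clones were apart in every tissue. In AB it had 1.47, 3.27 and 1.21 CPM in C1 and 58.4, 56.7 and 8.11 CPM in C11. In UP it had 0.738, 0.245 and 0.882 CPM in C1 and 81.8, 72.2 and 7.93 CPM in C11. In LB it had 2.57, 1.35 and 1.15 CPM in C1 and 58.5, 55.2 and 3.70 CPM in C11. Replicates 1 and 2 of C11 were close together in each tissue, and here replicate 3 was the lowest C11 library and not the highest. It still exceeded the mean of C1, 4.09 times in AB, 12.7 times in UP and 2.19 times in LB. The mean of C11 replicates 1 and 2 exceeded the C1 mean 29.1 times in AB, 124 times in UP and 33.7 times in LB.

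**Figure D1:**
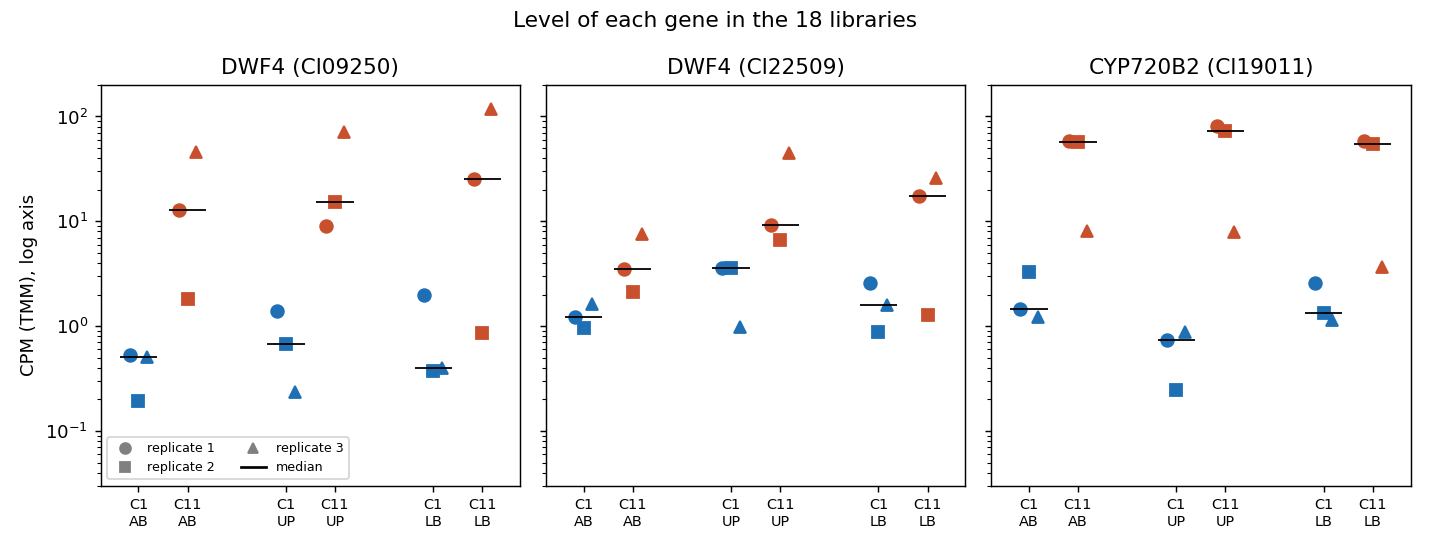
CPM on a log axis of DWF4 Cl09250, DWF4 Cl22509 and CYP720B2 Cl19011 in the 18 libraries, by tissue with C1 (blue) left of C11 (red). Symbols give the replicate number and bars the median of 3 libraries. The C11 triangles (replicate 3) are the highest C11 points for both DWF4 homologs and the lowest for CYP720B2.

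As log2 fold changes of C1 over C11, fitted with edgeR, Cl09250 was at -5.63 (standard error 1.24) for AB, -5.42 (1.11) for UP and -5.71 (1.75) for LB. Cl22509 was at -1.81 (0.58), -2.94 (0.93) and -3.15 (1.05) in the same order, and Cl19011 at -4.38 (0.86), -6.48 (1.09) and -4.55 (1.06). All 9 pairs of gene and tissue were thus lower in C1. The genes were listed by the study for this difference, so these values are a description and carry no test. Without the C11 replicate 3 library of the tissue, Cl09250 was at -4.17, -4.03 and -3.87 in AB, UP and LB. Cl22509 was then at -1.16, -1.58 and -2.52, and Cl19011 at -4.85, -6.99 and -5.09. Leaving out that library gave a smaller fold for the DWF4 homologs and a larger one for CYP720B2.

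With both a 2-fold change and an FDR below 0.05 required, edgeR called 2 of these 9 pairs, CYP720B2 in AB and in UP, both lower in C1. Without the C11 replicate 3 library of the tissue it called 4 of them, CYP720B2 in each tissue and Cl09250 in UP. In those fits 2.12% of all genes tested were called in either direction in AB, 10.7% in UP and 3.06% in LB. With all libraries these shares were 4.55%, 3.94% and 4.27%. Among all genes tested with all libraries, 2.78% were called lower in C1 for AB, 2.22% for UP and 2.5% for LB. The 3 C1 libraries lay below the 3 C11 libraries in 7 of the 9 pairs, and for 12.9%, 13.2% and 13.6% of all tested genes in AB, UP and LB. Since the genes were listed on these contrasts, nothing is read from these counts. The study, which used DESeq2 at the same thresholds, reports Cl09250 and Cl19011 as lower in all 3 tissues. Between the clones DESeq2 called more genes than edgeR, 2727, 3230 and 3413 against 1093, 951 and 1040 in AB, UP and LB. A pair not called by edgeR is therefore not read against the account of the study.

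Within C11 the spread of the 3 genes was above the median of all genes in each tissue. Between the 3 C11 libraries, log2(CPM + 1) of Cl09250 had an SD of 2.03 for AB, 1.48 for UP and 3.04 for LB. Over all genes of the filtered table the median SD of C11 was 0.385, 0.462 and 0.427. The SD of Cl09250 in LB lay at percentile 99.7 of these genes. For Cl19011 the SD was 1.55, 1.81 and 2.09 in AB, UP and LB of C11, at percentiles 96.2, 95.0 and 97.9. For Cl22509 it was 0.742, 1.39 and 1.91, at percentiles 80.2, 90.3 and 97.0. Between replicates 1 and 2 of C11 alone, the SD of Cl19011 was 0.0295, 0.125 and 0.0584 in AB, UP and LB, below the median of all genes in each tissue, whereas that of Cl09250 was 1.61, 0.499 and 2.70 and that of Cl22509 0.382, 0.296 and 2.14. In C1 the SDs of the 3 genes ran from 0.200 for Cl09250 in AB, at percentile 40.0, to 0.701 for Cl22509 in UP, at percentile 95.7, against medians over all genes of 0.248 for AB, 0.168 for UP and 0.203 for LB. At levels near or below 1 CPM the added 1 makes this SD smaller. Cl09250 in AB of C1 still ran over a 2.73-fold range, from 0.192 to 0.525 CPM.

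Replicate 3 of C11 set the DWF4 homologs and CYP720B2 apart in opposite directions. The 3 replicate 3 libraries of C11 held 45.6 to 119 CPM of Cl09250, above the 0.860 to 25.3 CPM of the other 6 C11 libraries. For Cl19011 they held 3.70 to 8.11 CPM, below the 55.2 to 81.8 CPM of the other 6. For Cl22509 they held 7.64 to 44.9 CPM against 1.29 to 17.6 CPM in the other 6, so the ranges overlapped, but replicate 3 was the highest within each tissue. Replicate 3 was 5.82 to 9.07 times the mean of replicates 1 and 2 for Cl09250 and 2.70 to 5.64 times for Cl22509. For Cl19011 the mean of replicates 1 and 2 was 7.11 times replicate 3 in AB, 9.71 times in UP and 15.4 times in LB. This pattern was seen in the values and is a description. Being the highest C11 library in all 3 tissues held for replicate 3 in 18% of all genes, and being the lowest in 16.6%.

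The DWF4 homologs followed each other within C11, and with a lower r within C1. Over the 9 C11 libraries, Pearson's r of their log2(CPM + 1) was 0.883 and Spearman's rho 0.850. Pearson's r was 0.874 over the 6 C11 libraries without replicate 3, and 0.752 over the 9 libraries of C1. In these C1 libraries Cl09250 rested on 6 to 53 counts, so little is read from the last value. How often other gene pairs reach such an r was not computed, and reads could be split between the homologs. Cl09250 and Cl19011 had an r of -0.770 over the 9 C11 libraries, which rested on replicate 3, since over the other 6 it was 0.396. Over the 9 C1 libraries it was 0.0107, and over the 6 of them without replicate 1 it was -0.762. Replicates 2 and 3 of C1 were not left out in turn. In the 6 C1 libraries without replicate 1, Cl09250 rested on 6 to 22 counts, so nothing is read from this change. Cl22509 and Cl19011 had an r of -0.622 over the 9 C11 libraries, 0.492 without replicate 3, and -0.483 over the 9 libraries of C1. These coefficients describe 9 libraries that share a clone, and tissues with the same replicate number deviated together in C11, so the libraries are not 9 independent points and no p-value is given.

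**Figure D2:**
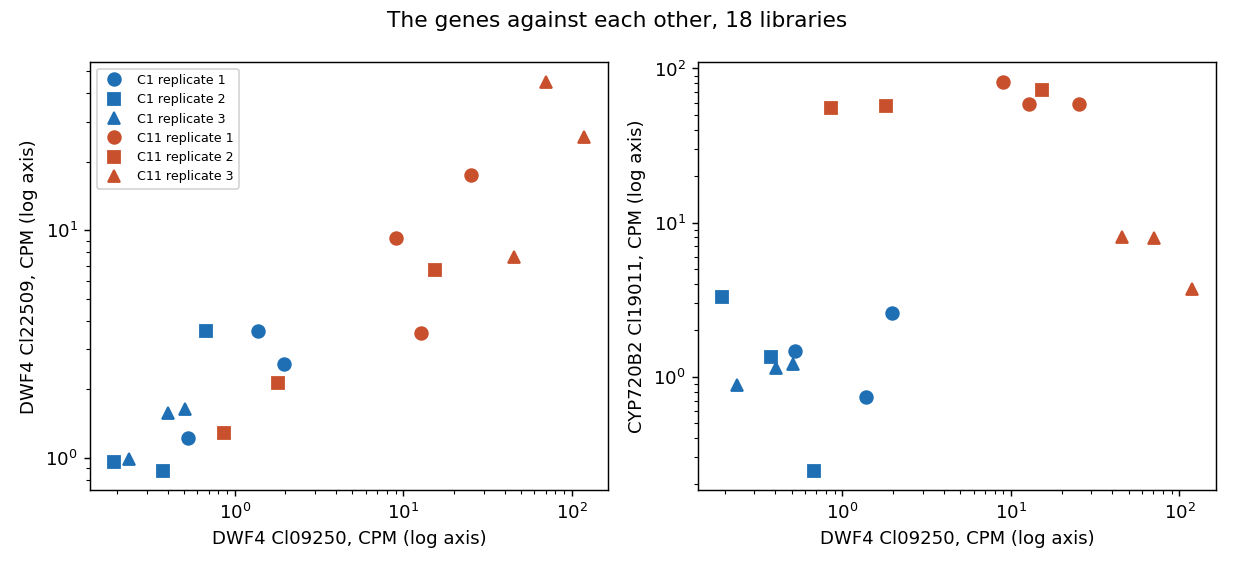
CPM on log axes of DWF4 Cl09250 (horizontal) against DWF4 Cl22509 (left) and CYP720B2 Cl19011 (right), 1 point per library, with colour for clone and symbol for replicate number. The DWF4 homologs lie along a rising band, and the 3 C11 replicate 3 libraries lie apart at the lower right of the other C11 points in the right panel.

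Ordered by mean, every C1 group lay below every C11 group for each gene. For Cl09250 the means ran from low to high as AB, UP and LB of C1 and then AB, UP and LB of C11. For Cl22509 they ran as AB, LB and UP of C1 and then AB, LB and UP of C11. The ranges of neighbouring groups overlapped at each step for both genes, so no neighbours in these orders differed beyond the spread of their libraries. For Cl19011 the order was UP, LB and AB of C1 and then LB, AB and UP of C11. Here 2 of the 5 steps had no overlap, UP below LB in C1, and AB of C1 below LB of C11. Without C11 replicate 3 every C1 group still lay below every C11 group, and for Cl22509 UP and LB of C11 changed places. The C11 groups then held 2 libraries each, of which those of CYP720B2 in UP, at 81.8 and 72.2 CPM, lay above those in AB. For Cl22509 the C11 libraries in UP, at 9.24 and 6.67 CPM, then also lay above those in AB, at 3.55 and 2.13 CPM.

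Whether the genes differed between the tissues of a clone was tested within each clone, since the study did not list the genes for a difference between tissues. No difference was called for any of the 3 genes by edgeR or by DESeq2. Before adjustment, the main edgeR fits, without a block, gave a p below 0.05 for CYP720B2 in C1 alone. It was 0.0211 for UP against AB and 0.0403 for UP against LB in edgeR. Some alternative fits of C11 also gave a p below 0.05 before adjustment. For Cl22509 in UP against AB it was 0.0345 with edgeR over all 18 libraries. In C1, CYP720B2 came nearest, with means of 0.622 ± 0.334 CPM (SD, n = 3) in UP, 1.69 ± 0.771 CPM in LB and 1.98 ± 1.12 CPM in AB. The 3 UP libraries of C1 lay below all AB and all LB libraries of C1. UP against AB was at a log2 fold change of -1.70, with a standard error of 0.60 and an adjusted p of 0.184 in edgeR, and UP against LB at -1.45, with a standard error of 0.60 and an adjusted p of 0.181. Over the alternatives the adjusted p ran from 0.0693 to 0.805 for UP against AB and from 0.107 to 0.702 for UP against LB. Of all genes tested in C1, 12.1% had their UP libraries below those of AB and 17.4% below those of LB. The UP values of C1 rested on 23, 8 and 26 counts.

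For the DWF4 homologs the tissues of C1 overlapped and no difference was called. For Cl09250 the log2 fold change was 0.87 (standard error 0.86) for UP against AB, -0.27 (0.83) for UP against LB and 1.14 (0.86) for LB against AB, with adjusted p = 0.629, 0.881 and 0.834 from edgeR. For Cl22509 it was 1.07 (0.56), 0.68 (0.55) and 0.39 (0.56), with adjusted p = 0.339, 0.496 and 0.929 from edgeR. For CYP720B2, LB against AB was at -0.25 (0.58), with adjusted p = 0.961 from edgeR. In C1, edgeR called 1.04% of all genes (255, or 78 with the replicate number as a block) for UP against AB and 5.19% for UP against LB. For LB against AB it called 0 genes, where 1658 had a p below 0.05 before adjustment and DESeq2 called 189.

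In C11 the standard errors were larger. The widest tissue difference was that of Cl22509, with 20.3 ± 21.4 CPM (SD, n = 3) in UP and 4.44 ± 2.86 CPM in AB, which edgeR put at 2.20 on the log2 scale with a standard error of 1.11 (adjusted p = 0.733). UP and AB overlapped, since replicates 1 and 2 of UP, at 9.24 and 6.67 CPM, fell on both sides of the highest AB library at 7.64 CPM. Cl22509 was at 0.45 (1.06) for UP against LB and 1.76 (1.10) for LB against AB. Cl09250 was at 0.68 (1.54) for UP against AB, -0.60 (1.54) for UP against LB and 1.28 (1.56) for LB against AB. CYP720B2 was at 0.39 (1.14), 0.47 (1.14) and -0.08 (1.14), with 53.98 ± 40.2 CPM (SD, n = 3) in UP, 39.1 ± 30.7 CPM in LB and 41.1 ± 28.6 CPM in AB. The adjusted p of these results ran from 0.733 to 1.00 with edgeR. No gene at all was called in C11 by edgeR in the 3 tissue comparisons. Before adjustment 1885, 1434 and 223 genes had a p below 0.05 for UP against AB, UP against LB and LB against AB, and DESeq2 called 578, 347 and 0. Without C11 replicate 3 in all tissues, the standard errors of CYP720B2 were 0.23 in each comparison, with 0.38, 0.40 and -0.03 as the log2 fold changes. Cl22509 was then at 1.45, -0.30 and 1.74 and Cl09250 at 0.70, -0.16 and 0.86, so the sign of Cl22509 in UP against LB turned, and again none was called. Same-numbered libraries deviated together between the C11 tissues, and with the replicate number as a block the standard errors were smaller. Cl22509, higher in UP than in AB within each of the 3 numbers, was then at 1.90 (standard error 0.66, adjusted p = 0.323 and unadjusted p = 0.0277 from edgeR). CYP720B2, higher in UP than in LB within each of the 3 numbers, was at 0.63 (standard error 0.25, adjusted p = 0.501 and unadjusted p = 0.0435 from edgeR). No difference was called with the block either.

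**Figure D3:**
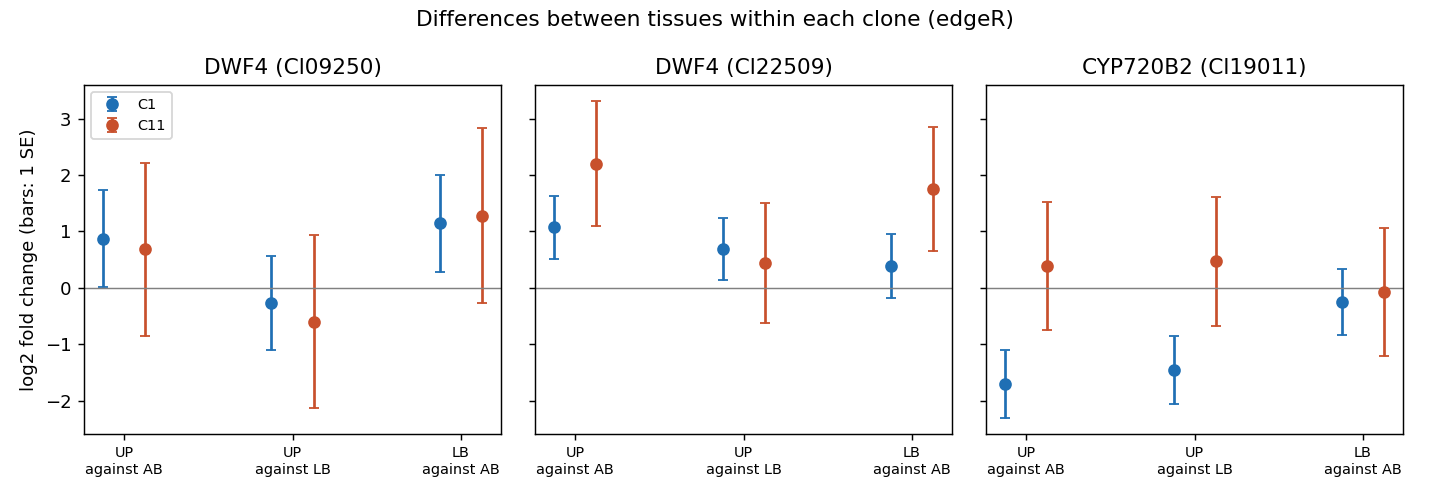
Log2 fold changes between tissues within C1 (blue) and C11 (red) for the 3 genes, fitted with edgeR, with bars of 1 standard error. The first tissue named is over the second. The estimate farthest from 0 within C11 is 2.20 for Cl22509 and that within C1 is -1.70 for CYP720B2, both in UP against AB, and none was called.

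CYP720B2 had its lowest mean in UP in C1 and its highest mean in UP in C11, and this difference was itself tested as an interaction over all 18 libraries. The log2 difference between the clones, C1 minus C11, of UP against AB was -2.05 (standard error 1.39, adjusted p = 1.00 from edgeR), and that of UP against LB was -1.90 (standard error 1.39, adjusted p = 1.00 from edgeR). Without the C11 replicate 3 libraries they were -2.11 (standard error 0.71) and -1.88 (standard error 0.71), with adjusted p = 1.00 for both. With all libraries and the replicate number as a block they were -1.91 (standard error 0.71) and -2.02 (standard error 0.70). In edgeR the blocked p was 0.0223 and 0.0162 before adjustment, and 0.777 and 0.920 after it. Same-numbered libraries of UP and LB in C1 did not all deviate together (r = 0.423, -0.032 and 0.313). The block thus lacks that ground in C1 for UP against LB. Without the block the unadjusted p from edgeR was 0.161 and 0.192. Neither interaction was called in any of these fits. For the DWF4 homologs the interactions ran from -1.33 to 0.33 with standard errors of 1.26 to 2.09, and none was called. Without C11 replicate 3 those of Cl09250 were at 0.15, -0.16 and 0.31 for UP against AB, UP against LB and LB against AB, so that the last of them, at -0.10 with all libraries, and UP against LB turned in sign. Those of Cl22509 were then at -0.40, 0.93 and -1.34. Over all genes, edgeR called 0.00736% for UP against AB and 0.011% for UP against LB. For LB against AB it called 0, where 420 genes had a p below 0.05 before adjustment and DESeq2 called 14. The interactions are differences of the clone contrasts on which the genes were listed.

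In its account of the brassinosteroid panel, the text of the study names 8 other genes by identifier. They are 4 homologs of BAS1, which in Arabidopsis inactivates brassinosteroids by hydroxylation, and 4 receptor-like kinase genes, 3 labelled LRK10 and 1 labelled SD25. These too were chosen on the clone contrast. BAS1 Cl30167 and the 4 kinase genes had log2 fold changes of C1 over C11 between -5.21 and -3.10 in the 3 tissues, on the same side as the P450 genes. The BAS1 homologs Cl22875 and Cl34399 lay on the other side, between 2.30 and 4.23. Without the C11 replicate 3 library of the tissue these ranges were -5.58 to -3.31 and 2.61 to 4.64. BAS1 Cl15277 had no counts in any C11 library and 0.750 ± 0.316 CPM (SD, n = 3) in AB of C1, 1.33 ± 0.389 CPM in UP and 0.652 ± 0.195 CPM in LB. Taking 3 counts over the C11 group as a floor, it was at least 20.95-fold higher in C1 in AB, 36.3-fold in UP and 18.3-fold in LB.

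Of the 24 pairs of these genes and tissues, 11 were called lower and 7 higher in C1 by edgeR, and 10 and 5 without C11 replicate 3. In LB, where same-numbered libraries of the clones deviated together, the block gave 5 lower and 2 higher, against 4 and 3 without it. In AB and in UP edgeR called 0 genes with the block. In either direction 4.55% of all genes were called in AB, 3.94% in UP and 4.27% (1040 genes, or 528 with the replicate number as a block) in LB. Without C11 replicate 3 these shares were 2.12%, 10.7% and 3.06%. The 8 genes had a median log2 fold change of -3.68 for AB, -3.77 for UP and -3.84 for LB, also with Cl15277 at its bound, against -0.02, -0.06 and -0.01 over all genes tested. All 24 pairs were without overlap, as were 25.4%, 30.9% and 28.5% of all genes tested in AB, UP and LB. Since the 8 genes were chosen on this clone contrast in these libraries, nothing is read from these counts or medians. Between tissues, 1 of the 8 genes was called, BAS1 Cl22875, higher in UP than in LB of C1 by 2.23 on the log2 scale (standard error 0.51, adjusted p = 0.0420 with edgeR), where 2.27% of all genes were called higher. Of the 8 genes, BAS1 Cl30167 had its 3 replicate 3 libraries above the other 6 C11 libraries and SD25 Cl18899 had them below, which over all genes held for 10.9% and 10.7%.

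**Figure D4:**
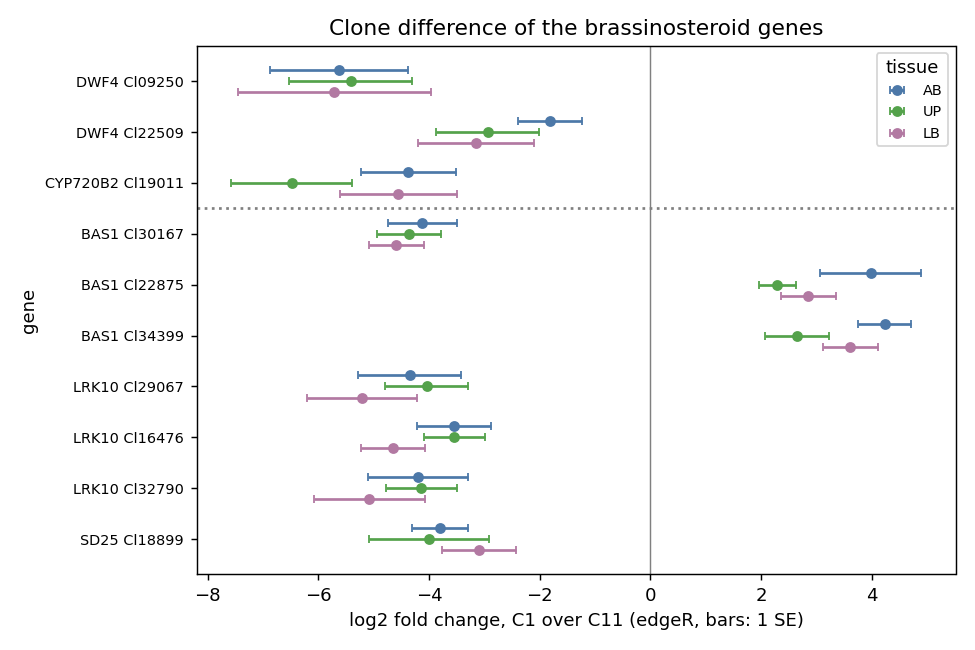
Log2 fold change of C1 over C11 (edgeR, bars of 1 standard error) in AB, UP and LB for the 3 P450 genes above the dotted line and 7 other named brassinosteroid genes below it. BAS1 Cl15277, which has no counts in C11, is left out. The P450 genes lie between -6.48 and -1.81, on the same side as Cl30167 and the kinase genes.

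A further 6 genes without a name are listed under brassinosteroid biosynthesis in the pathway table of the pink module, a group of co-varying genes that the study built from the same libraries. None of the 3 P450 genes is among them. Of the 15 pairs of these genes and tissues that could be tested between the clones, none was called by edgeR, and 9 had a log2 fold change below 0. In C1, 2 of the 6 (Cula0027149 and Cula0031126) were lower in UP than in AB, at log2 fold changes of -3.65 and -4.52 (adjusted p = 0.0349 and 0.0367 from edgeR), where 0.679% of all genes were called lower. Both were also lower in UP than in LB, at -4.00 and -4.73 (adjusted p = 0.0147 and 0.0157 from edgeR), where 2.92% of all genes were called lower. In C11, where edgeR called no gene of the whole table, Cula0027149 was at -5.93 for UP against AB and -6.46 for UP against LB, and without replicate 3 at -4.93 and -6.21. The UP libraries of Cula0027149 held 16, 10 and 16 counts in C1 and 2, 10 and 0 in C11. Those of Cula0031126 held 9, 5 and 15 counts in C1 and 0, 23 and 0 in C11. The study chose the module for its correlations with hormone levels. A shared tissue pattern is partly set by how the module was built and chosen, so nothing is read from these calls.

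The genes most like each P450 gene were sought by Pearson's r of log2(CPM + 1) over the 18 libraries, as a description. The libraries share their clone, tissue and replicate number, so they are not independent points. For Cl09250 they were Cula0026186, Cula0021914 and Cula0034597 (r = 0.980, 0.972 and 0.964). For Cl22509 they were Cula0003766, NewGene_4513 and Cula0033880 (r = 0.973, 0.958 and 0.957), and for Cl19011 Cula0001645, Cula0011291 and Cula0036050 (r = 0.979, 0.972 and 0.966). Cula0026186, for example, ran from 0 to 1.75 CPM in C1 and from 0.331 to 55.3 CPM in C11, and Cula0001645 from 1.78 to 6.23 CPM in C1 and from 7.96 to 50.1 CPM in C11. In all, 185, 173 and 102 of the 27174 genes had an r over 0.9 with Cl09250, Cl22509 and Cl19011. Over the 15 libraries without C11 replicate 3, the 9 named genes kept an r of at least 0.913, and the counts were 93, 77 and 619.

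With the group means taken out, so that only the replicates were compared, the nearest genes were different. They were Cula0019836, Cula0030184 and Cula0023939 for Cl09250 (r = 0.982, 0.975 and 0.973), NewGene_11407, Cula0021937 and Cula0004882 for Cl22509 (r = 0.975, 0.968 and 0.966), and Cula0015684, Cula0013684 and Cula0012750 for Cl19011 (r = 0.983, 0.979 and 0.979). On this measure 402 genes had an r over 0.9 with Cl19011, 419 with Cl09250 and 255 with Cl22509. Over the 15 libraries without C11 replicate 3 these counts were 4, 166 and 300. The r of the 3 genes nearest to Cl19011 was then 0.659 to 0.782, so their likeness rested on replicate 3, whereas that of the 6 genes nearest to the DWF4 homologs was 0.926 to 0.968. Each C11 group then held 2 libraries. Between them log2(CPM + 1) had an SD of 0.0295 to 0.125 for Cl19011, 0.499 to 2.70 for Cl09250 and 0.296 to 2.14 for Cl22509.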

How the data were processed

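Counts of 18 libraries were analysed. The authors aligned 150 bp paired-end reads with Hisat2 2.0.4 to the Chinese fir genome, and the deposited table holds raw counts, whole numbers for each gene. How reads were counted, whether strand was used and how reads shared by near-identical genes were treated is not given in the sources used here, so reads could be split between the DWF4 homologs or other P450 family members. Every value column belonged to a sample.

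Fits were made with edgeR 4.0.16 (R 4.3.3) on the counts as deposited, with TMM scaling, filterByExpr, the quasi-likelihood test and Benjamini-Hochberg adjustment over all genes tested. The standard errors given with edgeR are not an output of the fit. They were derived as the absolute log2 fold change divided by the square root of the quasi-likelihood F statistic. Tissues were compared within the 9 libraries of each clone, interactions over all 18, and the clones within the 6 of each tissue. All 3 genes passed the filter in every fit. Called genes differ at least 2-fold with an FDR below 0.05, the thresholds of the study. Alternatives were DESeq2 1.42.0, RLE size factors, no filter, a CPM of at least 1 in 3 libraries, fits of all 18 libraries or of 2 tissues, the replicate block, pseudocounts of 0.1 and 5, and each library left out. Leaving out each replicate number of a clone, and the values without C11 replicate 3 of calls, group order, spread and likeness, were chosen after seeing the data. The fits were also run on simulated counts that lacked the shared deviation of same-numbered libraries, so nothing about these data is read from that run. Figures used matplotlib 3.10.9 under Python 3.11.15.

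Named genes are the 3 P450 genes, the brassinosteroid genes the text of the study identifies, the pathway genes of its pink module, and for each P450 gene the 3 nearest by r on both measures. The genes and lists were chosen with earlier results of these data known. Same-numbered libraries deviated together (r over 0.1 for each of 3 pairs) between all tissues of C11 (0.244 to 0.739), between UP and AB of C1 (0.101 to 0.488), and between the clones in LB (0.257 to 0.397). No sequence was printed, since none was at hand.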

Additional observations from a re-analysis of the deposited data

How the results depend on the processing

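None of the 27 tissue and interaction results of the 3 genes was called under any of their 600 alternatives, and the 9 clone differences kept their sign in all 99 of theirs. Cl09250 did not pass a CPM of at least 1 in 3 libraries in C1, so that alternative gave no value there. The limits are the low counts of the genes in C1 and the spread of the C11 libraries, at which leaving out 1 library could turn the sign of a tissue difference.

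With the replicate number as a block, Cl09250 was at 0.56 for UP against LB in C11, and its interactions were at -0.70 for UP against AB and -0.68 for UP against LB. The interaction of Cl19011 for LB against AB was then at 0.10. These 4 turned in sign, and the block changed no call of a tissue or interaction result. Between the clones the block called 0 genes in AB and in UP, where numbers do not pair the clones, so both calls of CYP720B2 and the 11 of the 8 other genes there were not made with it.

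Leaving out a library or replicate number gave these lowest and highest log2 fold changes. In C1, Cl09250 ran from -0.99 to 0.93 for UP against LB and from -0.060 to 1.68 for LB against AB, where Cl22509 ran from -0.058 to 0.69 and Cl19011 from -0.84 to 0.47. In C11 for UP against AB, Cl09250 ran from -0.70 to 2.08 and Cl19011 from -0.11 to 0.90. In C11 for UP against LB, Cl09250 ran from -1.98 to 1.26, Cl22509 from -0.90 to 1.09 and Cl19011 from -0.075 to 0.98. In C11 for LB against AB, Cl09250 ran from -0.63 to 2.65 and Cl19011 from -0.58 to 0.45. The interactions of UP against AB ran from -1.19 to 1.62 for Cl09250 and from -1.72 to 0.25 for Cl22509. Those of UP against LB ran from -1.55 to 1.72 for Cl09250 and from -0.42 to 1.59 for Cl22509. Those of LB against AB ran from -1.53 to 1.78 for Cl09250 and from -0.75 to 0.52 for Cl19011. The clone difference ran from -6.16 to -4.17 in AB and from -6.14 to -4.03 in UP for Cl09250, and from -2.14 to -1.16 and from -3.36 to -1.58 for Cl22509, with the values nearest 0 all without C11 replicate 3.

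Counts over all genes moved more. In C1, UP against AB gave 255 calls, 1592 with DESeq2, 78 with the block, 1 over all 18 libraries and 0 over 2 tissues. UP against LB gave 1268, 2600 with DESeq2, 39 over all 18 libraries and 1958 over 2 tissues. LB against AB gave 0, 189 with DESeq2 and 1 both with the block and over all 18 libraries. In C11, UP against AB and UP against LB gave 0, 578 and 347 with DESeq2, and 99 and 61 over all 18 libraries. The interactions gave 2, 3 and 0 for UP against AB, UP against LB and LB against AB, and 27, 46 and 14 with DESeq2. The first gave 1 without a filter, and with the block the first and second gave 0. C1 against C11 gave 1093, 951 and 1040 in AB, UP and LB, 2727, 3230 and 3413 with DESeq2, and 0, 0 and 528 with the block. Without a filter it gave 524 in UP and 663 in LB. With 1 library left out it gave 85 to 552 in AB, 0 to 2683 in UP and 7 to 1689 in LB, and in C1 the tissues gave 0 to 923, 0 to 1607 and 0 to 15. The cause of these shifts was not tested. Of the 18 correlations with the nearest genes, that of Cula0019836 with Cl09250 moved most over the pseudocounts, to 0.927 with 0.1. Of the 9 nearest genes on each measure, 5 stayed nearest on both with 0.1, and 5 by level and 2 by deviation with 5. The 402 genes with a deviation r over 0.9 to Cl19011 became 209 with 0.1 and 444 with 5.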
